A study of Mus musculus with 51 samples.

Results

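The genes Krt18, Col1a2, Gad1, Syt1 and Tpbg are markers of epithelium, stroma, nerve and trophoblast, cell types foreign to a B-cell hybridoma. They were chosen by symbol with results of these arrays known: Krt18, Tpbg, Gad1, Syt1 and 1 Col1a2 probe had stood apart between 2 pmol and 0 pmol of spiked RNA. The 5 genes were represented by 6 probes, each printed as a pair of spots, so 12 of the 16896 spots carried them. Among the 7920 probes analysed as features, all 6 were measured. Col1a2 had a pair of probes, here named by their first spots, 11620 and 15050.

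The hybridised RNA was total RNA of CRL1606, a mouse hybridoma made by fusing antigen-primed BALB/c spleen cells with the BALB/c myeloma P3-X63-Ag8, which secretes an antibody against human fibronectin and was grown in suspension in a serum-free medium. Each of the 51 spotted 2-colour arrays carried this RNA in both channels, and RNA of 100 genes was added to channel 1 and of 100 others to channel 2, every gene at the same amount. The study ran from 0 pmol through 0.025, 0.05, 0.1, 0.15, 0.2, 0.25, 0.5, 0.75 and 1 pmol to 2 pmol. Array titles at every amount carry the word self-hybridisation. There were 3 arrays at 0.025, 0.15, 0.2, 1 and 2 pmol and 6 arrays at the other amounts. All groups come from 1 cell line, and the labels do not say that replicates were separate cultures, so a p-value here reflects array-to-array spread that may be technical. The sources used here do not say which genes were spiked, so no member is known to be among them.

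The values are log2 ratios of the 2 channels, centred here on the median of each array. The numerator channel is unknown, so ratios are called positive or negative and no channel is called brighter. Because both channels held the same cellular RNA, a gene with no spike should give a ratio near the array's middle whatever its expression in the hybridoma. A ratio therefore holds no expression level, and neither the absence of these marker genes from the line nor the line's B-cell identity could be checked. Over all features the mean at 0 pmol had a median of -0.06, with a 5th percentile of -0.95 and a 95th percentile of 0.62.

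Arrays differed in quality. On 8 of the 51 the paired spots correlated below 0.7 across features: replicate 3 at 0 pmol, replicates 4 to 6 at 0.05 and 0.1 pmol, and replicate 4 at 0.75 pmol. The 3 arrays at 1 pmol measured 14621, 8370 and 11741 of the 16896 spots. The slopes and means of the called probes are also given without these arrays.

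Krt18 encodes a type I keratin that pairs with Krt8 in the intermediate filaments of simple epithelia. Tpbg encodes the trophoblast glycoprotein, a leucine-rich-repeat membrane protein of trophoblast and many carcinomas. Col1a2 encodes the alpha 2 chain of type I collagen, the main fibrillar collagen made by fibroblasts. Gad1 encodes a glutamate decarboxylase that makes the inhibitory transmitter GABA, and Syt1 encodes synaptotagmin 1, the calcium sensor that triggers fusion of synaptic vesicles.

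The 6 probes fell into different patterns. Krt18 and Tpbg stayed near 0 without spike and gave large positive ratios at every spiked amount, down to 0.025 pmol. Gad1 had a small positive ratio without spike and group means of -0.07 to 0.55 up to 0.75 pmol, with higher means at 1 and 2 pmol. Syt1 and the Col1a2 probe 15050 were negative at 0 pmol and lay near 0 at most spiked amounts, and the Col1a2 probe 11620 had no steady direction.

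The difference between 2 and 0 pmol, which took part in choosing the genes, is given as a description only. Tpbg gave 7.60, 7.59 and 7.32 on the 3 arrays at 2 pmol, against a lowest of 0.08, a median of 0.33 and a highest of 0.49 on the 6 arrays at 0 pmol. Krt18 gave 4.43, 4.41 and 4.42 at 2 pmol, against 0 pmol values with a lowest of -0.13, a median of 0.27 and a highest of 0.37. For both genes every 2 pmol array lay far above every 0 pmol array. Gad1 gave 1.78, 1.63 and 0.98 at 2 pmol, against a lowest of 0.00, a median of 0.44 and a highest of 0.74 at 0 pmol. Syt1 gave 0.23, 0.22 and 0.37 at 2 pmol, against a lowest of -1.14, a median of -0.74 and a highest of -0.44 at 0 pmol. These groups did not overlap either, but for Syt1 the distance from 0 was larger without spike than with it. How many of all features also showed no overlap was not counted, so the lack of overlap is not read as particular to these genes.

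The Col1a2 probe 15050 gave 0.29, 0.04 and 0.34 at 2 pmol, and at 0 pmol, where 5 arrays measured it, -2.38, -1.37, -0.93, -0.34 and 0.52. The Col1a2 probe 11620 gave -0.59, 0.01 and -0.41 at 2 pmol, against a lowest of -0.70, a median of -0.52 and a highest of 0.19 at 0 pmol. In both probes the 2 groups overlapped. In a fit of all 51 arrays the difference of 2 minus 0 pmol was 7.19 for Tpbg (SE 0.54), 4.25 for Krt18 (SE 0.49), 1.12 for Col1a2 probe 15050 (SE 0.38), 1.09 for Gad1 (SE 0.25), 1.03 for Syt1 (SE 0.34) and 0.05 for Col1a2 probe 11620 (SE 0.37). Over all features 15.6% were called in that comparison by limma's test at an adjusted p under 0.05, and nothing is read from it for the genes it helped to choose.

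**Figure D1:**
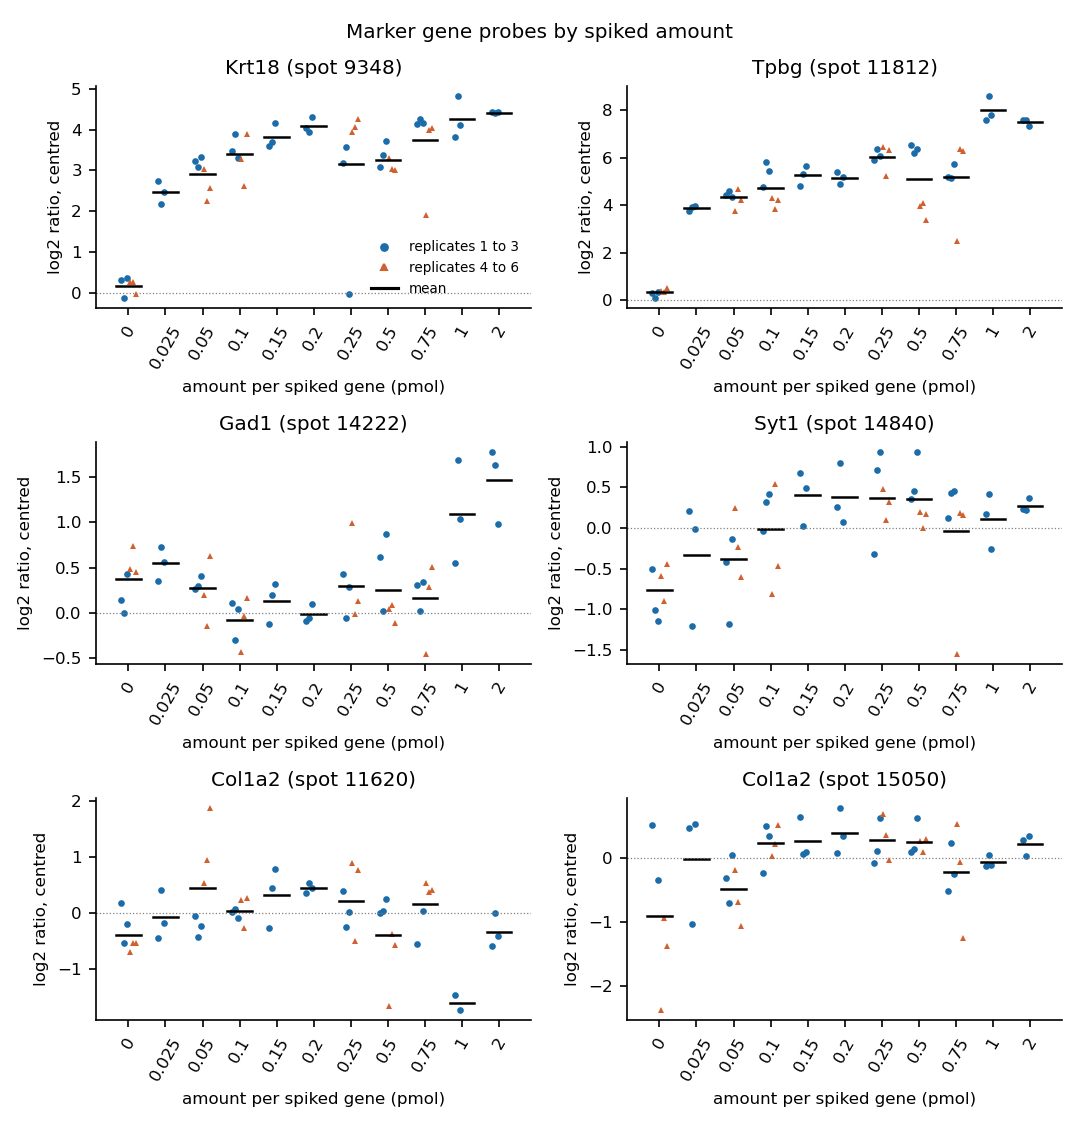
Centred log2 ratio (vertical axis, scaled separately in each panel) of the 6 probes on every array, by amount per spiked gene in pmol (horizontal axis, evenly spaced). Circles are replicates 1 to 3, triangles replicates 4 to 6, and bars group means. Krt18 and Tpbg lie near 0 at 0 pmol and between 1.92 and 8.60 at every spiked amount, except for Krt18 at 0.25 pmol replicate 3 (-0.03).

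Tests used only the 42 arrays of 0.025 to 1 pmol, which were not in the comparison that chose the genes. Earlier results of these data were known when the genes were chosen. Genes that stood apart at the highest amount may also stand apart at lower ones. The calls and ranks below therefore cannot be read as independent of that choice. The first test did not separate the offset without spike from the response to the amount. It asked whether the mean over the 9 amounts, each weighted equally, differed from 0. It called 3 of the 6 probes, all positive: Tpbg, Krt18 and Gad1. Among the 6004 features tested, 52.9% were called in either direction, 22% positive and 30.9% negative. A call in this test is therefore common. With 3174 features called and RNA of 100 genes spiked per channel, a call does not by itself mark a spiked gene.

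Tpbg averaged 5.30 over the 9 amounts (SE 0.14, adjusted p = 2.24e-29, limma) and was positive on 42 of 42 arrays. Krt18 averaged 3.46 (SE 0.12, adjusted p = 2.39e-25, limma) and was positive on 41 of 42 arrays. They ranked 7th and 58th of 6004 from the highest mean, and the 95th percentile of all features was 0.71. Gad1 averaged 0.30 (SE 0.058, adjusted p = 4.58e-05, limma), and 31 of 42 arrays were positive. This was no more than its mean of 0.37 ± 0.26 at 0 pmol (SD, n = 6), so the Gad1 call was of the size of its offset over those arrays. The offset differed between replicates, with a mean of 0.19 in replicates 1 to 3 and 0.56 in replicates 4 to 6. With replicates 1 to 3 only, Gad1 averaged 0.33 over the 9 amounts, above their own offset. Without the 1 pmol arrays the means were 4.96 for Tpbg, 3.36 for Krt18 and 0.20 for Gad1, and with only the arrays whose paired spots correlated at 0.7 or more they were 5.44, 3.55 and 0.32, all still called.

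The other probes did not pass. Syt1 averaged 0.10 (SE 0.084, adjusted p = 0.349), Col1a2 probe 15050 averaged 0.08 (SE 0.071, adjusted p = 0.369) and Col1a2 probe 11620 averaged -0.04 (SE 0.094, adjusted p = 0.748) in limma's test. Without centring, all 6 probes were called and the 4 smaller means turned negative or further negative. Gad1 then averaged -1.06.

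Relative to 0 pmol, the 9 amounts lay higher by 4.98 in Tpbg (SE 0.34) and by 3.28 in Krt18 (SE 0.30). They lay higher by 0.98 in Col1a2 probe 15050 (SE 0.25), by 0.86 in Syt1 (SE 0.21) and by 0.34 in Col1a2 probe 11620 (SE 0.23). Gad1 differed by -0.08 (SE 0.15). These differences share the 0 pmol arrays with the comparison that chose the genes and are given without a test. For Syt1 and Col1a2 probe 15050 the difference is nearly all offset: the 9-amount means were 0.10 and 0.08, against 0 pmol means of -0.76 ± 0.29 (SD, n = 6) and -0.90 ± 1.09 (SD, n = 5).

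**Figure D2:**
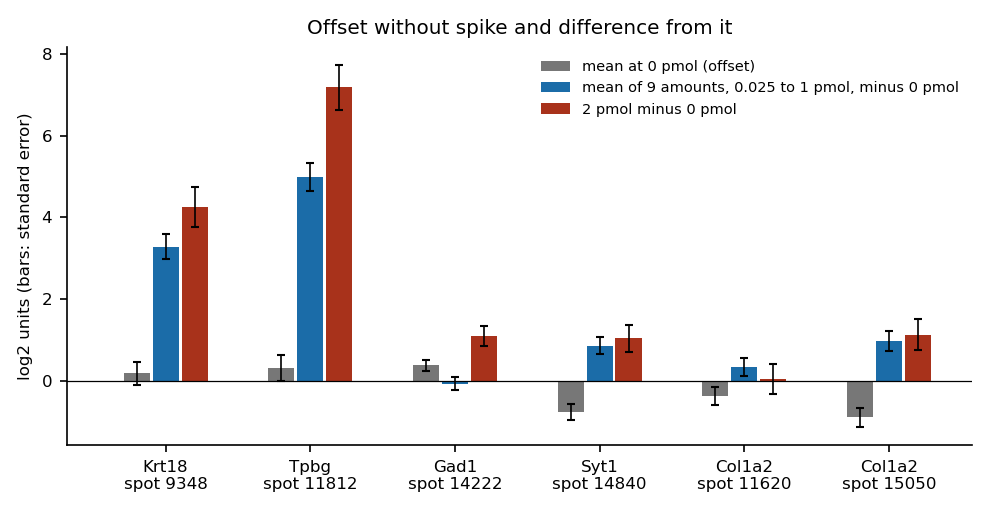
Mean at 0 pmol (grey), the mean of the 9 amounts minus the 0 pmol mean (blue) and the 2 pmol mean minus the 0 pmol mean (red) for the 6 probes, in log2 units, with standard errors from a fit of all arrays. Krt18 and Tpbg have small offsets and large differences. Syt1 and Col1a2 probe 15050 have negative offsets of about the size of their positive differences, and the blue bar of Gad1 is -0.08.

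The means of Krt18 and Tpbg did not climb steadily with the amount. The Krt18 mean was 2.46 ± 0.27 at 0.025 pmol (SD, n = 3), 3.41 ± 0.48 at 0.1 pmol (n = 6), 4.09 ± 0.19 at 0.2 pmol (n = 3), 3.25 ± 0.27 at 0.5 pmol (n = 6) and 4.26 ± 0.52 at 1 pmol (n = 3). The Tpbg mean was 3.88 ± 0.11 at 0.025 pmol, 4.73 ± 0.76 at 0.1 pmol, 5.16 ± 0.24 at 0.2 pmol, 5.09 ± 1.42 at 0.5 pmol and 8.01 ± 0.53 at 1 pmol, on the same arrays. For Krt18 the step between 0 and 0.025 pmol was larger than the further difference up to 1 pmol, and for Tpbg the further difference was the larger.

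The second test asked whether the ratio changed with log2 of the amount. Tpbg rose by 0.42 per doubling (SE 0.099, adjusted p = 0.00323, limma) and Krt18 by 0.21 per doubling (SE 0.074, adjusted p = 0.0460, limma). So 2 of the 6 probes were called, both positive. The background was 18.8% of 7920 features called in either direction, 9.86% positive and 8.96% negative. Tpbg ranked 35th and Krt18 427th of 7920 from the highest slope.

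The Krt18 slope lay at the edge of the threshold. It was no longer called when any 1 of 20 of the 42 arrays was left out, among them each array at 0.025 pmol and each at 1 pmol, with adjusted p between 0.00636 and 0.106 over the 42 fits by limma. The Tpbg slope was called in all 42 of these fits, at 0.37 to 0.49 per doubling, but not with the arrays scaled to one spread (0.35, adjusted p = 0.107, limma). Without the 1 pmol arrays it was 0.27 (adjusted p = 0.0451, limma), while that of Krt18 was 0.17 (adjusted p = 0.139, limma). With only the arrays whose paired spots correlated at 0.7 or more, the slopes were 0.45 for Tpbg and 0.22 for Krt18, both still called.

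The slopes of the other 4 probes did not pass. They were 0.10 for Syt1 (SE 0.051, adjusted p = 0.142), 0.04 for Gad1 (SE 0.041, adjusted p = 0.529), 0.04 for Col1a2 probe 15050 (SE 0.047, adjusted p = 0.623) and -0.14 for Col1a2 probe 11620 (SE 0.065, adjusted p = 0.117) in limma's test. Gad1 gave 0.55, 1.68 and 1.04 on the 3 arrays at 1 pmol, and its group means from 0.025 to 0.75 pmol ran from -0.07 to 0.55. The 1.68 came from 1 spot only, on the array that measured 8370 spots. Without the 1 pmol arrays its slope was -0.024, so the positive slope rested on them. Col1a2 probe 11620 was measured on 2 of the 3 arrays at 1 pmol, at -1.46 and -1.72, both below all its values at 0 pmol. The -1.72 averaged spots of -0.815 and -2.631.

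Syt1 was above its highest 0 pmol array on 36 of the 42 arrays. The 0 pmol arrays took part in choosing the gene, and the share over all features was not counted, so this is a description only. Syt1 values from 0.15 to 0.5 pmol were flat, with group means of 0.40, 0.38, 0.37 and 0.35. At 0.75 pmol its replicate 4 gave -1.55, while the other 5 lay between 0.12 and 0.46. With that array left out the Syt1 slope passed, at 0.14 per doubling (adjusted p = 0.0253, limma), and 3 of the 6 probes were called. On 3 of the 42 arrays Syt1 lay below its lowest 0 pmol value of -1.14: besides 0.75 pmol replicate 4, they were 1 array at 0.025 pmol (-1.20) and 1 at 0.05 pmol (-1.17).

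The slopes did not keep their direction in every set of arrays that resembled one another. Ward clustering of the arrays over all features gave 6 sets, which largely followed the amount, with 1, 3, 6, 8, 11 and 13 arrays. The 4 sets with more than 1 amount allowed a slope. For Tpbg it was 0.61 in 8 arrays of 0.025 to 0.1 pmol (SE 0.10), -0.10 in 6 arrays of 0.05 to 0.1 pmol (SE 0.30), -0.80 in 13 arrays of 0.1 to 0.5 pmol (SE 0.28) and -0.23 in 11 arrays of 0.25 to 0.75 pmol (SE 0.22). For Krt18 it was 0.49 (SE 0.11), 0.64 (SE 0.43), -0.39 (SE 0.13) and 1.18 (SE 0.44) in the same sets. The last of these was 0.50 (SE 0.16) without 0.25 pmol replicate 3, a setting chosen after seeing the data. With set as a term in the pooled slope, limma called 0 of the 6 probes, with 2 at an unadjusted p under 0.05, and 1 feature in all. The sets came from these same arrays and largely followed the amount, so the set term takes out much of the difference between amounts. The loss of calls and the changes of sign therefore cannot decide whether the slopes are stable.

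Part of the spread in Tpbg lay between replicate numbers. At 0.5 pmol it averaged 3.81 in replicates 4 to 6, against 6.37 in replicates 1 to 3, with no overlap. At 0.1 pmol these means were 4.12 for replicates 4 to 6 and 5.34 for replicates 1 to 3. Krt18 at 0.5 pmol differed less, with 3.11 in replicates 4 to 6 and 3.39 in replicates 1 to 3. Among the 111 features with a mean over 2 across the 42 arrays, the same difference at 0.5 pmol had a median of -0.61, and that of Tpbg, -2.56, was the 7th lowest. At 0.1 pmol the median over these features was -1.50, and that of Tpbg, -1.22, was 70th from the lowest. At 0.05, 0.25 and 0.75 pmol the Tpbg differences were -0.23, -0.12 and -0.30. The labels give no batch, and 3 arrays against 3 allow no exact p below 0.1.

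Krt18 and Tpbg each had arrays far from the rest. At 0.75 pmol replicate 4, Tpbg gave 2.47 where the other 5 arrays lay between 5.13 and 6.38, and Krt18 gave 1.92 where the others lay between 3.98 and 4.25. On that array all 111 of the high features were below the mean of the other replicates, with a median difference of -2.30, and its paired spots had the lowest correlation of all arrays, 0.198. At 0.25 pmol replicate 3, Krt18 gave -0.03 and the other 5 arrays lay between 3.18 and 4.25, while Tpbg on the same array gave 6.06. With both arrays left out, a setting chosen after seeing the data, Krt18 averaged 3.57 over the 9 amounts and its slope was 0.25 (adjusted p = 0.000251, limma), and 3 of the 6 probes were again called in the mean.

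The low Krt18 value at 0.25 pmol replicate 3 coincided with low values of other features in columns 20 and 21. Columns are counted within each print block, so these features were spread over several blocks. Krt18 sits in print block 27 at row 9, column 20. Of the 37 high features in columns 20 and 21, chosen after the values were seen, 8 lay more than 2 below the mean of the other replicates there, with a median difference of -0.52. Of the 74 in other columns, 1 did, with a median of 0.08. The 8 high features of block 27 had a median of -1.87. Krt18, at -3.84, was the 3rd lowest of the 111, and Tpbg, in column 20 of block 34, was 58th at 0.01. Both spots of Krt18 were low on this array, at 0.00 and -0.07. The part of position in this value was not tested.

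**Figure D3:**
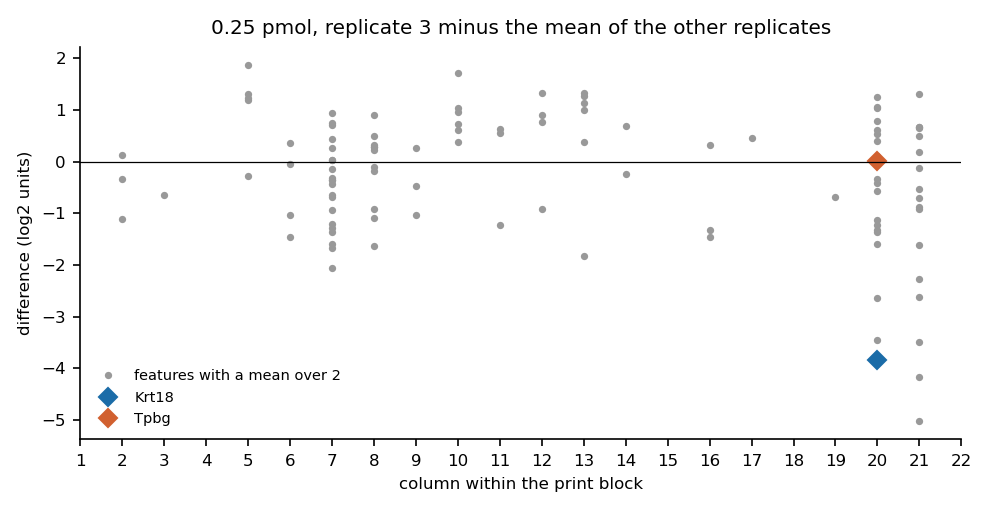
Difference of 0.25 pmol replicate 3 from the mean of the other 5 replicates (vertical axis, log2 units) for the 111 features with a mean over 2, by column within the print block (horizontal axis). Krt18 (blue) is at -3.84 and Tpbg (orange) at 0.01, both in column 20, and 8 of the 9 features below -2 lie in columns 20 and 21.

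Krt18 and Tpbg share a position within their blocks, row 9 and column 20. Of the 48 blocks, 6 had a feature with a mean over 2 at that position, which is 12.5%, against 1.40% of all features. Columns 20 and 21 together held 37 of the 111 features with a mean over 2. The 6 include Krt18 and Tpbg, and the position was chosen because they sit there, so this share is no test. The other 4 were Pum2, Clcn5, Slco2b1 and a feature without a symbol. Of the 4 features next to each of these probes, some were high and others near 0. Fabp5, a fatty acid binding protein printed above Krt18, averaged 4.24 over the 42 arrays, and Elf2, an ETS-family transcription factor printed right of Tpbg, averaged 3.67. Those left and right of Krt18 averaged -0.11 and 0.46, and those left of and above Tpbg averaged -0.13 and 0.09. The features printed below, both without a symbol, averaged 1.39 for Krt18 and 2.70 for Tpbg. The feature right of Syt1 had a 0 pmol mean of -1.05 and a mean of 0.14 over the 42 arrays, a pattern like that of Syt1, while those left, above and below averaged -0.03, -0.19 and -0.03 over these arrays. Whether neighbouring spots contribute to these ratios was not tested.

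The paired spots of a probe measured the large ratios closely and the small ones less so. The median absolute difference between the spots was 0.051 for Krt18, 0.070 for Tpbg, 0.12 for Gad1, 0.16 for Syt1 and 0.17 for both Col1a2 probes, against 0.149 over all features. The spots were more than 1 apart on 0 arrays for Krt18 and Tpbg, 1 for Gad1, 5 for Syt1, and 4 and 5 for Col1a2 probes 11620 and 15050. At 0 pmol replicate 3 the Syt1 spots gave -2.41 and 0.12, and the lowest 0 pmol value of Col1a2 probe 15050 came from spots of -3.51 and -1.25. The offsets of these small probes thus rest in part on spots that disagree.

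**Figure D4:**
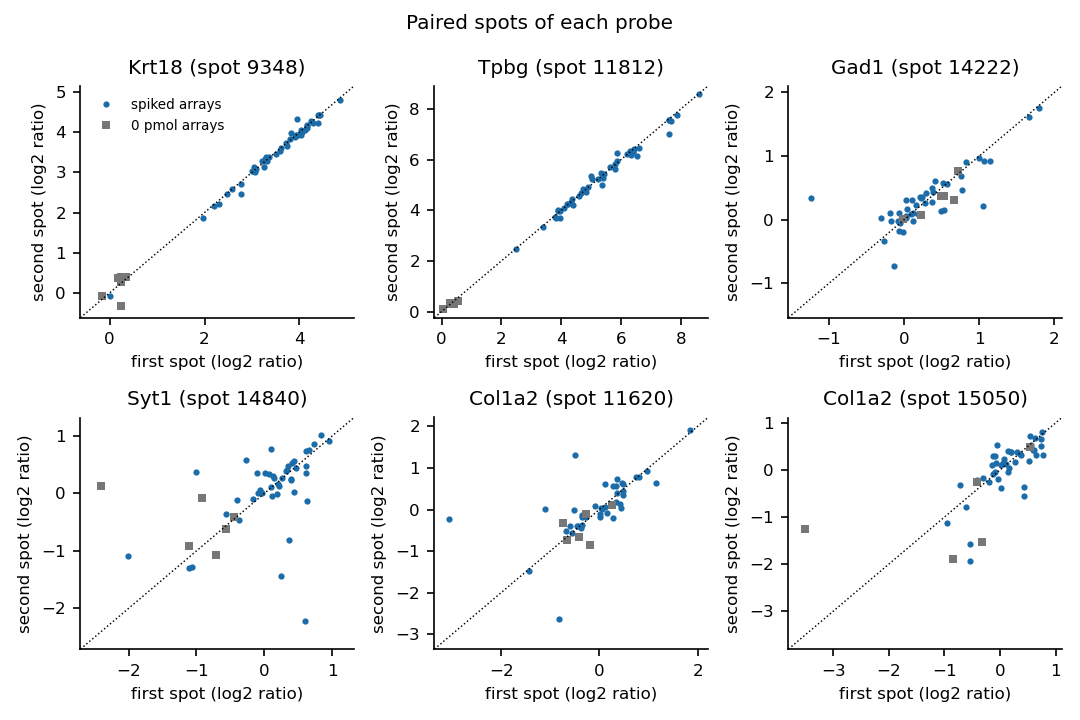
Second spot against first spot (centred log2 ratios) of each probe, with spiked arrays in blue, 0 pmol arrays as grey squares and the line of equality dotted. The points of Krt18 and Tpbg lie on the line, while those of Syt1 and of both Col1a2 probes scatter, including 0 pmol arrays with 1 low spot.

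The Col1a2 probe 15050 offset also depended on the replicates. At 0 pmol it averaged -1.56 in replicates 4 to 6, against 0.09 in replicates 1 and 3. Its print block, 43, which also holds Syt1, had a median of -0.18 at 0 pmol, the 5th lowest of the 48. The 2 Col1a2 probes did not vary together over the 40 arrays with both, r = -0.18. Their means over the spiked arrays used for the tests were both near 0. These were -0.04 (SE 0.094) for probe 11620 and 0.08 (SE 0.071) for probe 15050. Neither probe was called in the mean or in the slope. The lack of correlation therefore does not show that the probes contradict each other.

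Likeness over the 42 arrays of 0.025 to 1 pmol is given by Pearson's r, as a description, since all features share the same arrays. The features most like Tpbg were 4930581F22Rik (0.88), Sspn (0.88) and Pbrm1 (0.87). Those most like Krt18 were Hk2 (0.79) and Fabp5 (0.68), both in its own block 27, and Lcor (0.75). Without 0.25 pmol replicate 3 these values were 0.69 for Hk2, 0.59 for Fabp5 and 0.58 for Lcor. Gad1 was most like Rhobtb2 (0.83), Zfp719 (0.77) and Map3k9 (0.73), and Syt1 most like Gimap6 (0.87), Pth1r (0.81) and Zscan2 (0.78). For Col1a2, probe 11620 was most like Adam23 (0.76), Kdm5b (0.75) and Ccn5 (0.74), and probe 15050 most like Atrnl1 (0.69), Pcmtd2 (0.68) and Krt79 (0.66). Among the members themselves, Tpbg and Gad1 had an r of 0.57, and Tpbg and Krt18 one of 0.47.

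Other markers of the same cell types were set against the shares over all features, which were 52.9% called in the mean (22% positive and 30.9% negative) and 18.8% in the slope. The mean is tested against 0, so a call includes any offset at 0 pmol. Of 5 epithelial probes tested in the mean, 4 were called positive and none negative, with a median of 0.40 against -0.05 over all features. Besides Krt18 these were the junction protein Jup (0.77, adjusted p = 1.33e-09), the keratin Krt13 (0.40, adjusted p = 0.00130) and the tight junction protein Cldn4 (0.33, adjusted p = 2.83e-06) in limma's test. Cldn4 had 0.35 at 0 pmol already, while Jup had -0.55 and Krt13 -0.92 there. In the slope, Krt18 was the only one called of 7 epithelial probes.

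Of 15 stromal probes, 4 were called positive and 3 negative in the mean, close to the 52.9% called over all features, with a median of -0.04. The largest was the matrix glycoprotein tenascin, Tnc, at 2.35 in one probe and 0.62 in the other. The elastic fibre protein Eln averaged 0.39, below its 0 pmol mean of 0.97. The collagen Col5a1 was positive in one probe (1.07) and negative in the other (-0.43). In the slope, 2 of 19 stromal probes were called positive and 2 negative, beside 18.8% over all features, with the collagen Col5a2 highest, at 0.33 per doubling (adjusted p = 0.0364, limma).

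In the neural lists, 1 of 5 GABA probes was positive (Gad1) and 1 negative, the calcium-binding protein Calb1 at -0.34, and 2 of 6 probes for synaptic vesicle release were positive, Syp at 0.50 and Vamp2 at 0.21, against 0 pmol means of 0.21 for Syp and 0.70 for Vamp2. In the slope 0 of the 5 and 0 of 7 were called by limma, with 1 and 2 at an unadjusted p under 0.05. Of 12 probes for neuronal structure, 1 was positive and 4 negative, beside 22% positive and 30.9% negative over all features, with Stmn2, a microtubule regulator of axons, at -2.32 in 1 of its 3 probes. Its other 2 probes did not pass. In the slope 2 were positive and 1 negative.

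The trophoblast list held 2 probes, of which Tpbg alone was called in the mean, and both in the slope, with the transcription factor Tfap2c at 0.11 per doubling (adjusted p = 0.0466, limma). Of 6 B-cell and plasma cell probes, 1 was positive and 3 negative, where 30.9% of all features were negative, among them the B-cell receptor regulator Cd22 at -3.92 (SE 0.20, adjusted p = 4.86e-20, limma), a ratio of the same order as that of Krt18 with the opposite sign, and in the slope 1 was negative. Of 3 probes for other blood cells, 2 were negative in the mean and 1 was positive in the slope. Large ratios thus occurred in a marker of the line's own lineage as well as in foreign ones.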

How the data were processed

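Per array, the authors deposited a log2 ratio per spot, with some spots left blank. The log base was read from the values. The numerator channel, background correction and normalization are not given in the sources used here. Values at the upper limit of 16.61 (1074 in all) were taken as missing. Measured spots per array ran from 8370 to 16862, and the number of arrays limits the precision. Each array was centred on its median (-3.33 to 0.971 before centring) and the 2 spots of a probe, 22 positions apart, were averaged. Of 8448 probes, 528 controls were left out, and 5348 features had 1 symbol, updated with RefSeq names of GRCm38.p6, used for names only.

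Tests were run in R 4.3.3 with limma 3.58.1 (lmFit and eBayes, two-sided, Benjamini-Hochberg over all features, threshold 0.05), on the 42 arrays of 0.025 to 1 pmol: the mean of 9 amounts against 0, with at least 2 arrays measured per amount, and the slope on log2 amount. Tables were read with data.table (version 1.17.8), the figures drawn with matplotlib 3.10.9 in Python 3.11.15, and the fits were tested on simulated data. Alternatives were centring, scaling, the upper limit, single spots, missing values, the replicate number as a block, array sets, subsets of arrays, moderation and leaving out each array. The members and the gene lists were chosen with earlier results of these data known. Named genes were the members, up to 4 called genes per list, the 3 features most like each member and its printed neighbours. Replicate numbers were not taken as pairing the arrays, since their deviations did not correlate in every pair (lowest r = -0.473).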

Additional observations from a re-analysis of the deposited data

Results flagged for a closer look

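In the 36 groups of 5 or 6 arrays checked, 4 had 1 array far from the others, where chance gives about 1 in 20. They were Krt18 at 0.25 pmol replicate 3 (-0.0315), where the other 5 arrays lay between 3.18 and 4.25, Krt18 at 0.75 pmol replicate 4 (1.92), where the others lay between 3.98 and 4.25, Tpbg at 0.75 pmol replicate 4 (2.47), where the others lay between 5.13 and 6.38, and Syt1 at 0.75 pmol replicate 4 (-1.55), where the others lay between 0.12 and 0.46. So 3 of the 4 come from 1 array, whose paired spots correlated at 0.198.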

How the results depend on the processing

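The mean was called for Krt18, Tpbg and Gad1 in all 42 fits that left out 1 array, and the number of probes called was 3 in each. The features called in the mean numbered 3174, and 5921 without centring (145 positive, 5776 negative) or 1994 with only features measured on all arrays (1208 and 786), against 1320 positive and 1854 negative. All 6 probes were called in the mean without centring, where Gad1 turned to -1.06, Syt1 to -1.26 and Col1a2 probe 15050 to -1.28. Col1a2 probe 11620 turned to 0.0242 with a replicate block and to 0.15 up to 0.75 pmol. The mean could not be fitted with array sets.

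The features called in the slope numbered 1491 (781 positive, 710 negative). They were 49 without centring (37 and 12), 954 with only features measured on all arrays, 1 with array sets (1 and 0), 2265 with replicates 1 to 3, and 1172 up to 0.75 pmol (775 and 397). Leaving out 1 array gave 891 to 1611, with the 891 without 0.025 pmol replicate 2. The probes called in the slope numbered 2, and 1 without centring, with the upper limit kept, with the first spot only, up to 0.75 pmol or without moderation, 0 with scaled arrays or array sets (1 and 2 at an unadjusted p under 0.05), and 1 to 3 when leaving out 1 array. The Krt18 slope lost its call in 8 settings, with adjusted p between 0.0503 and 0.952 by limma, and that of Tpbg with scaled arrays (0.35, adjusted p = 0.107). Syt1 was called with the second spot only (0.19), replicates 1 to 3 (0.15), arrays whose paired spots correlated at 0.7 or more (0.13) and both low arrays left out (0.14). With array sets, which largely followed the amount, the slopes turned to -0.20 for Tpbg, -0.0652 for Gad1, -0.0191 for Syt1 and -0.0503 for Col1a2 probe 15050. Gad1 turned to -0.0236 up to 0.75 pmol and Col1a2 probe 15050 to -0.0102 with arrays of closer paired spots. The cause of these changes was not tested.

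Replicate numbers were not taken as pairing: over 138 same-numbered pairs the median correlation of deviations was 0.0058 and the lowest -0.473. Yet 16 of 42 arrays (38.1%) were most like one with their own number, where same-numbered pairs were 17.8% of all 774, a hint from the data that some numbers mark shared variation. With a replicate block, 3046 features were called in the mean and 1472 in the slope, with 3 and 2 of the 6 probes. The adjusted p of the Krt18 slope was then 0.0496.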
